A study of Mus musculus with 16 samples.

Results

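The insulin-like growth factor (IGF) system of the mouse cortex was followed through its 10 genes by symbol: the ligands Igf1 and Igf2, the receptors Igf1r and Igf2r, and the binding proteins Igfbp2, Igfbp3, Igfbp4, Igfbp5, Igfbp6 and Igfbp7. All 10 were found among the 53801 gene identifiers counted, and 9 of them were counted highly enough to be among the 10363 genes tested. Igf2 was not, having no count in any animal. The members were chosen by gene symbol, and the family itself was selected on its counts in these same libraries and groups, so its group values are given as a description and no p-value here stands as independent support.

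Each of the 16 libraries held polyadenylated cortical RNA of 1 C57BL/6 mouse about 12 to 12.93 months old, read by a method that counts the 3′ ends of transcripts. Wild-type mice were given saline (WT saline, n = 6, 3 of them female), and mice lacking Grn, the progranulin gene, were given saline (KO saline, n = 5, 1 female) or a virus (KO AAV, n = 5, 2 female). The virus, an adeno-associated vector directed at the liver, was injected into the tail vein at 300000000000 vector genomes. It encodes 8D3:PGRN, human progranulin joined to a single-chain antibody fragment that binds the mouse transferrin receptor, and the annotation gives 8 months of treatment. Both knockout groups lack Grn, and no group received a virus without the fusion protein or received the virus as wild type, so effects of the vector and of its product cannot be told apart.

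IGF1 and IGF2 are small secreted proteins related to insulin that promote growth and survival of neurons and glia. They signal through the IGF1 receptor, a tyrosine kinase, while the IGF2 receptor clears IGF2 and carries lysosomal enzymes tagged with mannose 6-phosphate. The binding proteins hold IGFs in the extracellular space, slow or favour their delivery to the receptor, and are cut by proteases that set the ligand free.

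The stretches of 250 bases upstream of an annotated RefSeq start are shown for the 3 genes whose fitted difference between KO saline and WT saline had a 95% interval clear of 0 (Igfbp5, Igfbp4 and Igf1) and for Igfbp2, the chromosomal neighbour of Igfbp5. They come from RefSeq on GRCm38.p6, are written 5′ to 3′ on the strand of the gene, and carry in capitals every match on either strand to a TATA box (TATAAA), an E-box core (CACGTG), an AP-1 site (TGANTCA), a FOXO site (TGTTTAC) or a GC box (GGGCGG).
Igfbp5, chr1:72874866-72875115, minus strand: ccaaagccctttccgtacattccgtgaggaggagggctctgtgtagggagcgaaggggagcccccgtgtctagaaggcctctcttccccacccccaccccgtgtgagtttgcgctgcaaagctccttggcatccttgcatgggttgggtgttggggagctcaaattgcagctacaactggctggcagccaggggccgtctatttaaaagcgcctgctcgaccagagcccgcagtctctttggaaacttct
Igfbp4, chr11:99040994-99041243, plus strand: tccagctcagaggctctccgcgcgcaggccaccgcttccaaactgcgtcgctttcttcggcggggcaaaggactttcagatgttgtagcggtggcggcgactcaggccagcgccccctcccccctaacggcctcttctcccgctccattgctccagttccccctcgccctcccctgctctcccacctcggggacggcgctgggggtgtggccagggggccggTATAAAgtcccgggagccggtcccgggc
Igf1, chr10:87860861-87861110, plus strand: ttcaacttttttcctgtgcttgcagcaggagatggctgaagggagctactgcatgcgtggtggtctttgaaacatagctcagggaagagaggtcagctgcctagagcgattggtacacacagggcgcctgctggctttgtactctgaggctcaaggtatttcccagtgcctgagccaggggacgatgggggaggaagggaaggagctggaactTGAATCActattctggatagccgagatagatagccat
Igfbp2, chr1:72824230-72824479, plus strand: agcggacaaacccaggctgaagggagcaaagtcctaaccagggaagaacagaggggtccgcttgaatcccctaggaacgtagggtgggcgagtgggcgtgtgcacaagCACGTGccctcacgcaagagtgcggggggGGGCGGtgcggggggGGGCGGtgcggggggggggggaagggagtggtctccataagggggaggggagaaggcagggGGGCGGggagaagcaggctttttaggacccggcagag

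The Igfbp5 stretch held no match to any of the 5 motifs and was 58.8% G or C. The Igfbp4 stretch, at 69.2%, held 1 TATA box near its downstream end, a motif found in 12.4% of the 32851 mouse promoters searched in the same way. The Igf1 stretch held 1 AP-1 match, as did 6.75% of all promoters, and that of Igfbp2 held 1 E-box core (6.02% of all promoters) and 3 GC boxes (at least 1 in 32.7%). A second annotated start of Igfbp2 has another window, chr1:72825137-72825386, with 1 AP-1 match and none of the other 4 motifs. In GENCODE M21 the Igf1 gene begins earlier, at 87858265, so the Igf1 window lies inside that gene. The Igfbp5 window overlaps its gene, which reaches 72874884 there. No FOXO match, found in 3.17% of promoters, lay in a window of any of the 10 genes. As the Igfbp5 window held no match, it could share none of the 5 motifs with any gene, so a comparison with Igfbp4 shows nothing. Igfbp2 and Igfbp5 face each other on chromosome 1, with 5457 bases and 0 annotated genes between their 3′ ends (GENCODE M21), yet their levels did not move together: their Pearson r over the 16 libraries with group means removed was -0.44.

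Total counts per library ran from 1351974 to 2119019. The wild-type libraries together held 226 counts of Grn, from 16 to 67 each, and every knockout library held 0, as the genotype labels state. All 10 cortical excitatory neuron markers were present, with summed levels of 2856 to 4527 CPM (counts scaled to a common library total) over all animals, and the summed striatal neuron markers spread from 342 to 1997 CPM within WT saline. KO saline replicate 1 had the highest share of mitochondrial counts, 29.8%, against 20.4% to 26.2% in the other libraries. Levels below are CPM after TMM scaling, which adjusts each library total for its composition. Because the method reads transcript ends, levels of different genes are set side by side as 3′ counts and are not divided by transcript length.

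In KO saline the cortex held more Igfbp5, Igfbp4 and Igf1 transcript on average than in WT saline, and in KO AAV the means of all 3 lay lower again. None of these differences passed the threshold when p was adjusted over all genes. Of the 9 tested members, 0 passed an adjusted p of 0.05 in edgeR's quasi-likelihood test of KO saline against WT saline, where 0.0482% of all tested genes passed. At an unadjusted p under 0.05 there were 3 of 9, all higher in KO saline (Igfbp5, Igf1 and Igfbp4), beside 4.12% of all tested genes. Over 34 alternatives Igfbp5 was under this limit in 34, Igf1 in 30 and Igfbp4 in 23. For KO AAV against KO saline, 0 of 9 passed beside 0.0193% of all genes, and 2 of 9 had an unadjusted p under 0.05, both lower in KO AAV (Igfbp4 and Igfbp5), beside 2.55%. For KO AAV against WT saline, 0 of 9 passed beside 0.00965% of all genes, and 0 of 9 were under an unadjusted 0.05 beside 3.99%. DESeq2 and limma-voom also called 0 of 9 in each comparison. Since the genes were chosen with these differences in view, nothing is read from the shares. The median fitted log2 change of the 9 genes was 0.23 in KO saline against WT saline, where the median of all genes was 0.00272. For KO AAV against KO saline it was -0.155 (all genes -0.0114) and for KO AAV against WT saline 0.0833 (all genes -0.00781). The comparisons share groups, so their values are set side by side and not counted as repeats of each other. In bulk tissue, a change in the number of cells of a type and a change in RNA per cell cannot be told apart.

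**Figure D1:**
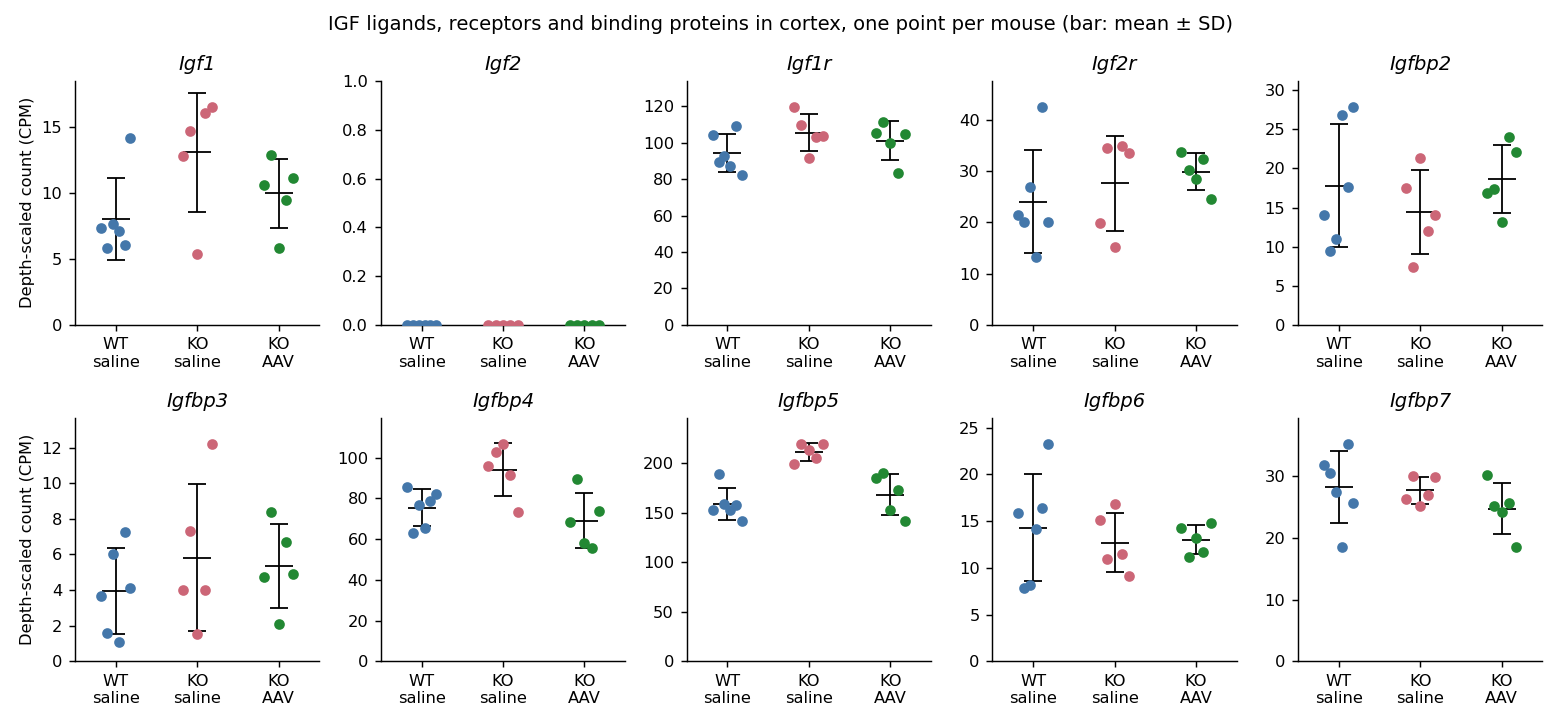
Level of each of the 10 IGF genes in every animal, as TMM-scaled CPM on axes that start at 0, by group; each point is 1 mouse and bars give mean and SD. Igfbp5 is the 1 gene whose KO saline points, from 199 to 219.8, all lie above the other groups, and Igf2 lies at 0 in every animal.

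**Figure D2:**
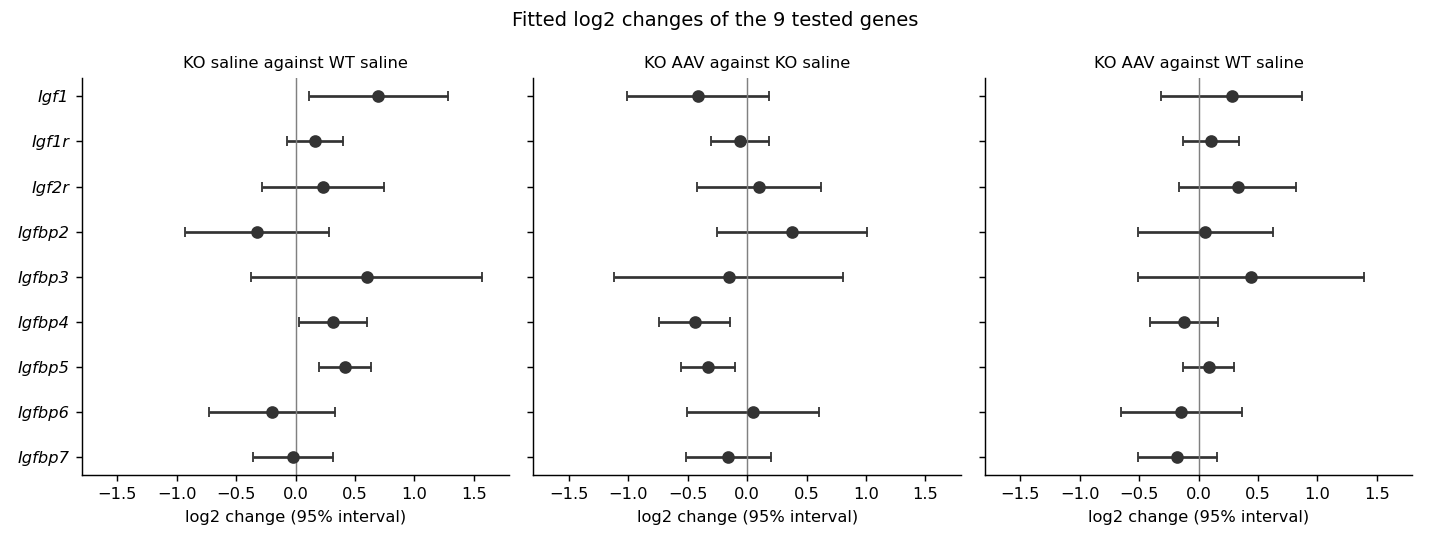
Fitted log2 change of the 9 tested genes with its 95% interval (points and bars) in each of the 3 comparisons. In KO saline against WT saline the intervals of Igf1 (0.11 to 1.28), Igfbp4 (0.03 to 0.60) and Igfbp5 (0.20 to 0.63) exclude 0, in KO AAV against KO saline those of Igfbp4 and Igfbp5 do, and in KO AAV against WT saline none does; these intervals are not adjusted for the number of genes.

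Among the ligands, Igf1, which signals through the IGF1 receptor, was a low-count gene with 7 to 31 counts in a library. Its level in WT saline ran from 5.80 to 14.2 CPM with a median of 7.23. The KO saline animals had 12.8, 14.7, 5.34, 16.02 and 16.5 CPM, and the KO AAV animals had 10.6, 12.9, 5.79, 9.48 and 11.1 CPM. In KO saline, 4 of 5 animals lay above the WT saline median and 1 lay below every WT saline animal, so the groups overlapped. KO saline averaged 13.1 ± 4.55 CPM (SD, n = 5) and WT saline 8.02 ± 3.09 (n = 6), a log2 change of 0.69 (SE 0.282, edgeR adjusted p = 0.995). In KO AAV the mean was 9.95 ± 2.62 CPM (n = 5), a log2 difference of -0.42 from KO saline (SE 0.288, adjusted p = 1), which was -0.60 without KO saline replicate 3 and -0.26 without KO AAV replicate 3.

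Microglia are a known source of Igf1 in the brain, and the summed level of their markers had the same order of group means. Of the 16 listed microglia markers the table holds 15, none at 0 throughout, with summed levels of 564 to 694 CPM in WT saline, 742 to 1023 in KO saline and 613 to 718 in KO AAV. The sum weighs most on Ctss, the most counted marker with 6910 counts. In KO saline against WT saline Ctss was the 1 marker that passed (log2 change 0.64, edgeR adjusted p = 0.00225). Of the 15 tested, 13 had a positive log2 change, while Cx3cr1 (-0.05) and Csf1r (-0.16) had a negative one. Within groups, however, Igf1 and this sum ran in opposite directions, with Pearson r -0.592 and Spearman rho -0.509 over 16 libraries, and r -0.51 without the 2 libraries farthest from the median. The part of microglial abundance in the Igf1 levels was not tested.

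Igf2, an imprinted gene that in the adult brain is known mainly from the meninges and choroid plexus, had 0 counts in all 16 libraries. With 3 counts as the floor over the 27253991 counts of all libraries, a count of 0 allows a level of up to 0.11 CPM, for counting error only. No test was possible because every value was 0. Igf2 (chromosome 7, 142650766 to 142666816, minus strand, GRCm38) overlaps an annotated protein-coding gene on the same strand, ENSMUSG00000115302, which shares 497 of the last 500 exonic bases of Igf2, or 99.4%. That gene also had 0 counts. How the authors counted reads lying in both genes is not stated in the labels or headers, so the 0 describes the table and not the tissue. Some meningeal fibroblast markers were present in the same libraries, with 352 counts of Dcn, 271 of Col1a2 and 1018 of Mgp in all. Others were scarce, such as Lum with 26, Col3a1 with 24 and Islr with 15, and 7 of the 17 listed were tested. Of the choroid plexus markers, 11 of 12 had at least 1 count and Slc4a5 had none. Only 1 of them, Enpp2 with 3850 counts, was tested, while Ttr had 102 counts, Folr1 5 and Kcne2 1 in all.

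Neither receptor passed the test in any comparison. Igf1r, the tyrosine kinase that carries the growth signal, was among the more steadily measured members. It stood at 82.2 to 109 CPM in WT saline with a median of 91.3, at 119.6, 109.9, 91.6, 103 and 104 CPM in KO saline, and at 105.6, 111.7, 100.1, 83.6 and 104.7 CPM in KO AAV. The groups overlapped throughout. Its log2 change was 0.16 (SE 0.113, adjusted p = 0.995) for KO saline against WT saline and -0.06 (SE 0.118, adjusted p = 1) for KO AAV against KO saline. The 95% interval of the former, -0.07 to 0.40, bounds what these libraries allow. All 5 KO saline animals lay above the WT saline median, a pattern whose share over all tested genes was not computed.

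Igf2r, the cation-independent mannose 6-phosphate receptor, varied more among animals of a group than between groups. Its WT saline levels spanned 13.1 to 42.5 CPM with a median of 20.8. Those of KO saline were 19.9, 34.4, 15.3, 34.9 and 33.6 CPM, 3 high and 2 low, while those of KO AAV were closer together at 33.8, 30.2, 28.5, 32.3 and 24.6 CPM. The coefficient of variation in KO AAV was 12.0%, beside 33.7% in KO saline and 41.9% in WT saline. The log2 change was 0.23 (SE 0.246, adjusted p = 0.995) for KO saline against WT saline and 0.33 (SE 0.239, adjusted p = 0.881) for KO AAV against WT saline. Both rested on single WT saline libraries: without replicate 4 they were 0.10 and 0.21, and without replicate 5 they were 0.46 and 0.57. Igf2r overlaps the antisense RNA gene Airn, which had 37 counts in all, with no exonic base in common.

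Igfbp5, a binding protein that also attaches to extracellular matrix, was the most highly counted member in every library. WT saline animals had 141.5 to 189.8 CPM with a median of 155.5. KO saline animals had 199, 219.8, 214, 206 and 219.8 CPM. KO AAV animals had 185, 189.9, 153, 173 and 141.6 CPM. Every KO saline animal lay above every WT saline animal, a pattern that 0.27% of all tested genes showed in this direction, and every KO AAV animal lay below every KO saline animal, as did 0.299% of all tested genes. The KO AAV and WT saline ranges nearly coincided.

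The mean Igfbp5 level was 159 ± 16.3 CPM in WT saline (SD, n = 6), 212 ± 8.94 in KO saline (n = 5) and 168 ± 20.7 in KO AAV (n = 5). KO saline was 1.33-fold WT saline, a log2 change of 0.41 (SE 0.104), and edgeR's adjusted p was 0.69. KO AAV differed from KO saline by a log2 of -0.33 (SE 0.109, adjusted p = 1) and from WT saline by 0.08 (SE 0.104, adjusted p = 0.9), with a 95% interval for the latter of -0.13 to 0.30. In males alone the log2 changes were 0.32 for KO saline against WT saline and -0.25 for KO AAV against KO saline. The lowest adjusted p for KO saline against WT saline over 34 alternatives was 0.106, with DESeq2.

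The separation of the Igfbp5 groups depended on the scaling. KO saline replicate 1 had the lowest TMM factor, 0.904, beside its high mitochondrial share. Scaled by library size alone it gave 180.2 CPM, below the highest WT saline value of 198 and the highest KO AAV value of 192.8. Under upper-quartile scaling the KO saline minimum, which came from another library, and the WT saline maximum were both 198.8 CPM. KO AAV at up to 187.8 stayed below. With RLE factors, with TMM on genes not encoded by mitochondria, and with the deposited library sizes and factors, neither group overlapped KO saline. Deposited counts are rounded to 2 significant digits, so each Igfbp5 count carries an uncertainty of up to 5 counts. At the rounding limits KO saline would still be at least 195 CPM, with WT saline at most 192 and KO AAV at most 193.

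Markers of reactive astrocytes had the same order of group levels as Igfbp5. All 11 listed markers had at least 1 count, and their sum was 64.3 to 74.1 CPM in WT saline, 126 to 165 in KO saline and 77.6 to 94.4 in KO AAV. Gfap with 1028 counts and Vim with 934 made up most of this sum. Lcn2 had 1 count in all, and 5 of the 11 were tested. Within groups the correlation of Igfbp5 with the sum was weak (r 0.251, rho 0.288 and 0.332 without 2 libraries, n = 16 libraries). The all-gene median size of r with it was 0.217. With the microglia marker sum it was -0.181, with the endothelial one 0.281 and with the mural one -0.0024. The part of these cell types in the Igfbp5 levels was not tested.

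Igfbp4, known mostly as an inhibitor of IGF action that is cut by the protease encoded by Pappa, was the second most counted binding protein. Its WT saline levels ran from 63.3 to 85.75 CPM with a median of 77.75. The KO saline animals had 95.7, 102.6, 107, 91.6 and 73.3 CPM, and 4 of the 5 exceeded every WT saline animal. The KO AAV animals had 68.65, 89.4, 57.9, 55.7 and 73.9 CPM, and 3 of the 5 lay below every KO saline animal. Shares of all tested genes with such partial separations were not computed. Group means were 75.4 ± 9.05 CPM (SD, n = 6), 94.0 ± 13.0 (n = 5) and 69.1 ± 13.6 (n = 5) in that order. The log2 change was 0.32 (SE 0.138, adjusted p = 0.995) for KO saline against WT saline and -0.44 (SE 0.145, adjusted p = 1) for KO AAV against KO saline. KO AAV and WT saline differed by -0.13 (SE 0.138, adjusted p = 0.891).

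Igfbp4 lies on the chromosome of the deleted gene. Igfbp4 (chromosome 11, 99041244 to 99054392, plus strand) ends 3.38 Mb before Grn (102430315 to 102437048), so sequence that travels with the knockout allele and the loss of Grn cannot be told apart in KO saline against WT saline. Igfbp3, also on chromosome 11, begins at 7206086, at the far end of it.

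The remaining binding proteins were lower and more scattered. Igfbp2, a main binding protein of the brain and its coverings, averaged 14.5 ± 5.34 CPM in KO saline, against 17.8 ± 7.90 in WT saline and 18.7 ± 4.35 in KO AAV. Its log2 change was -0.32 (SE 0.292, adjusted p = 0.995) for KO saline against WT saline, and it ran from -0.50 without KO saline replicate 3 to -0.14 without WT saline replicate 6. Igfbp6, which prefers IGF2 over IGF1, averaged 14.3 ± 5.76, 12.7 ± 3.15 and 13.0 ± 1.57 CPM in WT saline, KO saline and KO AAV in that order. Igfbp7, a vascular protein that binds IGFs only weakly, averaged 28.2 ± 5.80, 27.7 ± 2.20 and 24.7 ± 4.16 CPM in the same order. Igfbp3, the chief carrier of IGFs in blood, was the scarcest member with counts, at 3.96 ± 2.42, 5.81 ± 4.13 and 5.37 ± 2.35 CPM, and its 2 to 20 counts per library leave log2 intervals as wide as -0.37 to 1.57. The values of these 4 genes overlapped between groups in each comparison. Of the last 500 exonic bases of Igfbp7, 85 lie opposite an exon of Polr2b, which had 1424 counts, and the labels and headers do not state the strand setting of the counting. Igfbp1, the family's other high-affinity member, had 1 count in all.

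Added together, the 6 binding proteins made up 279.5 to 313 CPM in WT saline, with a mean of 299 ± 12.5 (SD, n = 6). The sum was 352 to 385 CPM in KO saline (366 ± 14.5, n = 5) and 263 to 341 in KO AAV (299 ± 31.7, n = 5). All KO saline sums lay above all sums of the other groups, and the KO AAV and WT saline means were nearly equal. Scaled by library size alone the lowest KO saline sum was 323.6 CPM, above the highest WT saline sum of 317 but below the highest KO AAV sum of 339. Under the other scalings tried, KO saline sums lay above all others. Igfbp5 and Igfbp4 make up most of the sum, and their differences are described above, so its separation is not a further result. Of the rest, Igfbp2, Igfbp6 and Igfbp7 averaged lower in KO saline than in WT saline and Igfbp3 averaged higher. No share over sums of other genes was computed. Igfbp5 supplied 57.8 ± 2.41% of the KO saline sum, 53.3 ± 5.63% of that in WT saline and 56.2 ± 2.92% of that in KO AAV. For Igfbp4 the shares in these groups were 25.6 ± 2.95%, 25.2 ± 2.66% and 23.1 ± 3.37%. The balance of Igfbp5 to Igfbp4 counts, 2.30 ± 0.404 in KO saline, 2.15 ± 0.469 in WT saline and 2.49 ± 0.473 in KO AAV, overlapped between groups.

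**Figure D3:**
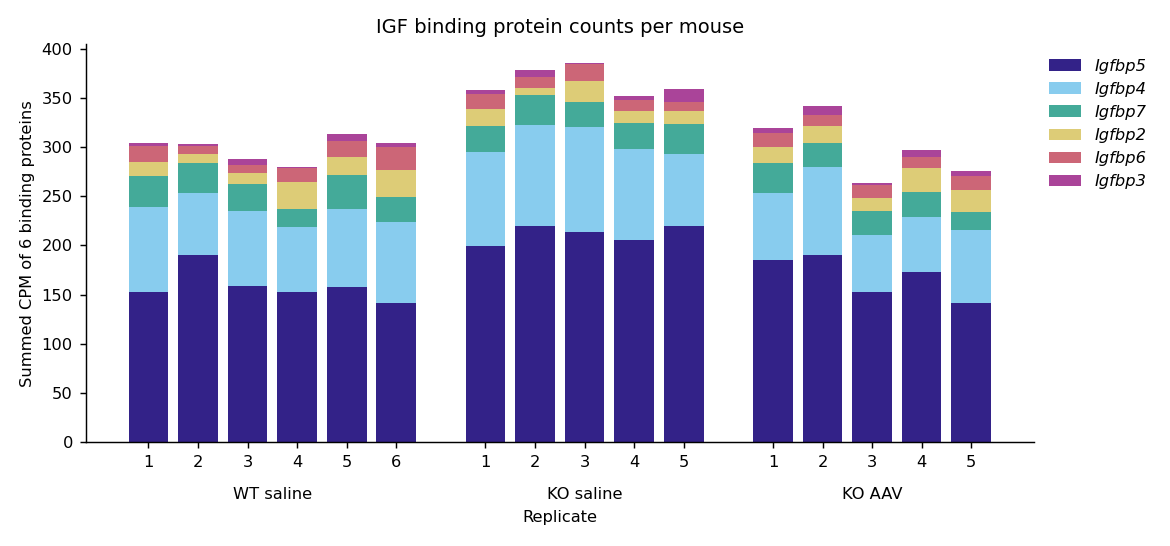
Summed level of the 6 binding proteins in each mouse, as stacked TMM-scaled CPM from 0, with replicate numbers along the axis by group. The 5 KO saline bars reach 352 to 385 CPM, above the 11 others at 263 to 341 (with library size alone, the lowest KO saline sum falls below the highest KO AAV sum), and the 2 lowest blocks, Igfbp5 and Igfbp4, make up most of every bar.

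Genes that act with the IGFs were read beside the members, in lists drawn up with earlier results of these data known. Of the 12 genes for release of IGFs from their binding proteins and for the serum complex, 5 were counted highly enough to test, and 0 passed in either direction in any comparison. Igfals, the acid-labile subunit of the serum complex, had 0 counts in all, and the IGFBP proteases Pappa and Pappa2 had 9 and 20. The lowest p values in this list belonged to Ctsd and Adam9 in KO saline against WT saline, with log2 changes of 0.20 (SE 0.125) and 0.93 (SE 0.655), and to Htra1 and Ctsd in KO AAV against KO saline, with 0.27 (SE 0.127) and -0.26 (SE 0.131). Htra1 encodes a secreted protease that can cut IGFBP5, and Ctsd the lysosomal protease cathepsin D.

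Of the 57 genes of insulin and IGF receptor signalling, 49 were tested, and 0 passed in either direction in any comparison. Their median log2 change was 0.0499 for the knockout against wild type under saline and -0.00216 for KO AAV against KO saline. Rptor, a subunit of mTOR complex 1, had a log2 difference of 0.61 (SE 0.251, edgeR adjusted p = 0.995) and then -0.51 (SE 0.26, adjusted p = 1) on 252 counts in all. Pik3cb, a catalytic subunit of PI3 kinase, had -0.44 (SE 0.189, adjusted p = 0.995), and Map2k1, a kinase of the MAPK cascade, had 0.22 (SE 0.126, adjusted p = 1) in KO AAV against KO saline. Insr, the insulin receptor, had 0.13 (SE 0.245) and 0.18 (SE 0.249).

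The mannose 6-phosphate sorting genes, which share the lysosomal route with Igf2r, were all tested, 9 of 9, and 0 passed in either direction in any comparison. Gnptab, an enzyme that builds the mannose 6-phosphate tag, had a log2 change of 0.38 (SE 0.136, adjusted p = 0.995) in KO saline against WT saline and -0.29 (SE 0.141, adjusted p = 1) in KO AAV against KO saline. Nagpa, which uncovers the tag, had 0.45 (SE 0.265, adjusted p = 0.995) and -0.57 (SE 0.28, adjusted p = 1). Sort1, the neuronal receptor that takes up progranulin, had -0.05 (SE 0.14) and -0.01 (SE 0.146). Among the IGFBP-related proteins, 3 were tested (Ctgf, Nov and Wisp1) and 0 passed, with log2 changes of -0.11 to 0.25 in KO saline against WT saline. None of the 3 genes for binding of Igf2 mRNA was counted highly enough to test.

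Among animals of a group, some members varied together. With group means removed, 22 of the 36 pairs of tested members had a positive Pearson r over the 16 libraries. The highest was that of Igf2r and Igfbp3 (r 0.756, rho 0.709, and 0.645 without the 2 libraries farthest from the median). It was followed by Igf2r and Igfbp7 (r 0.717, rho 0.618, 0.687) and by Igfbp2 and Igfbp6 (r 0.697, rho 0.635, 0.657). The lowest was that of Igfbp5 and Igfbp6 (r -0.599, rho -0.626, -0.479). For Igfbp5 and Igfbp4, both highest on average in KO saline, r within groups was -0.09. All values of a library share its scaling, so these are descriptions.

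Part of this followed an axis shared by much of the transcriptome. The leading component of the data after removing group means held 35.5% of the residual variance, and the median size of r with it over all tested genes was 0.469. Igf2r was close to it (r 0.913, rho 0.915, 0.842 without 2 libraries), while Igfbp3 (r 0.744, 0.567 without 2 libraries) and Igfbp7 (r 0.648, 0.476) were less so and Igfbp2 ran against it (r -0.632, -0.449). The all-gene median was computed over all 16 libraries only, so the values without 2 libraries have no matching median. Of all tested genes, 13.0% had a size of r above 0.8. Igfbp4 was unrelated to the component (r 0.00132) and Igfbp5 weakly related (r 0.343). The component itself had r -0.572 with the mitochondrial share, -0.298 with the RNA integrity number and 0.273 with depth.

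**Figure D4:**
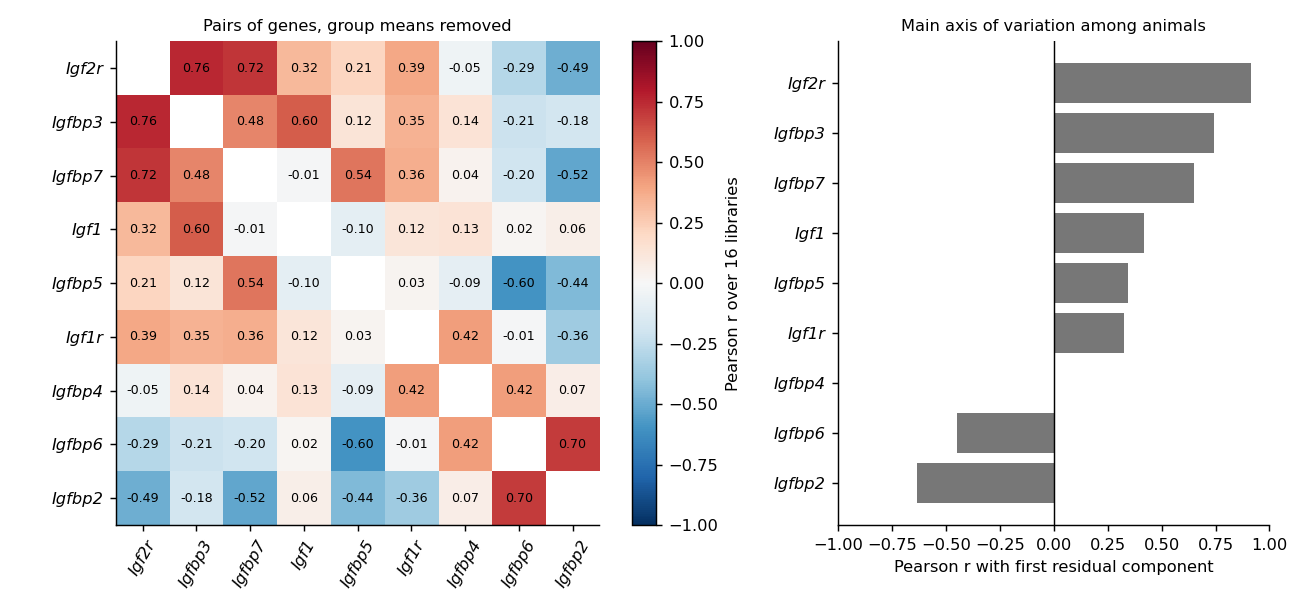
Left, Pearson r between every pair of the 9 tested genes over 16 libraries with group means removed, as a colour scale from -1 to 1 with the value printed. Right, the r of each gene with the leading residual component: Igf2r, Igfbp3 and Igfbp7 form a positive block on the left and have the longest positive bars, from 0.648 to 0.913, and Igfbp2 and Igfbp6 pair with each other (0.70) and lie on the negative side.

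Relations to cell type markers are given beside the median size of r over all tested genes, computed over all 16 libraries only. It was 0.422 for the summed microglia markers, 0.389 for those of oligodendrocytes and their precursors and 0.325 for cortical excitatory neurons. Igf2r ran against the summed microglia markers (r -0.883, rho -0.879, -0.85 without 2 libraries) and with those of oligodendrocytes and their precursors (r 0.773, rho 0.691, 0.732). Igfbp3 shared the first relation (r -0.783, rho -0.735, -0.695). Igfbp2 ran against the oligodendrocyte markers (r -0.755, rho -0.715, -0.788) and with cortical excitatory neuron markers (r 0.664, rho 0.726, 0.78). Igfbp7 had r 0.765 with the oligodendrocyte markers (0.429 without 2 libraries) and -0.638 with cortical excitatory neuron markers (-0.221). Its r with endothelial markers was 0.498 (0.364 without 2 libraries, all-gene median size 0.196). With mural markers it was -0.395 (-0.114 without 2 libraries, all-gene median size 0.348). For Igfbp2 and Igfbp6, genes known from the meninges, r with meningeal fibroblast markers was 0.493 each, but 0.318 and 0.299 without 2 libraries (all-gene median size 0.17). That list shares Pdgfra with the oligodendrocyte and precursor list. The relation was not particular to it. With GABAergic interneuron markers r was 0.535 for Igfbp2 and 0.608 for Igfbp6 (0.583 and 0.602 without 2 libraries, all-gene median size 0.335). With choroid plexus markers, mostly Enpp2, it was 0.441 and 0.475 (0.545 and 0.828, median size 0.325). The summed striatal neuron markers, uneven among animals, had an all-gene median size of 0.207. Their r was -0.549 with Igf1 (-0.579 without 2 libraries), -0.485 with Igfbp4 (-0.615) and -0.608 with Igfbp6 (-0.207). With Igfbp5 it was 0.269 (-0.22). The part of striatal tissue in the member levels was not tested.

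For each tested member the genes of the closest pattern over the 16 libraries, group means removed, were named by the highest r among all 10363 tested genes, a choice that favours high values. Igf2r had r 0.959 with RP23-440D19.2 (rho 0.968, 0.951 without 2 libraries). Igfbp7 was closest to Impa1, an inositol monophosphatase (r 0.925), and Pdp1 (r 0.894). Igfbp3 was closest to Fbxl5, an iron-sensing ubiquitin ligase subunit (r 0.92), and Hopx (r 0.884). Igfbp2 was closest to Kcnc4, a potassium channel (r 0.913), and Nsmf (r 0.884), and Igfbp6 to Irf9, an interferon-response factor (r 0.875), and Mia3 (r 0.84). Igf1r was closest to Ppp2r3a, a phosphatase subunit (r 0.856), and Tmem17 (r 0.831). 3 members had an unadjusted p under 0.05 in KO saline against WT saline in edgeR's test. Of these, Igfbp4 was closest to Creg2 (r 0.806) and Gabra5, a GABA receptor subunit (r 0.799). Igf1 was closest to Car8 (r 0.787) and Tmtc1 (r 0.786, but 0.584 without 2 libraries). Igfbp5 was closest to Creb5, a transcription factor (r 0.774), and Papola, a poly(A) polymerase (r 0.77). With group means kept, some of these values were much lower. They were 0.473 for Igf1 and Tmtc1, 0.489 and 0.41 for Igfbp5 with Creb5 and Papola, and 0.464 for Igf1r and Tmem17. The other pairs named had 0.645 (Igfbp4 and Gabra5) or more.

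Sex was examined after the values were seen, because the groups held different numbers of females. Igfbp2 was the member that differed most. The 6 females had 14.0 to 27.8 CPM (mean 22.1) and the 10 males 7.33 to 21.4 CPM (mean 14.0), so the sexes overlapped. With group as a term, the log2 difference of females from males was 0.66 (SE 0.208), and edgeR's adjusted p was 0.81. Of the 9 members 0 passed, beside 0.0482% of all tested genes, and 1, Igfbp2, had an unadjusted p under 0.05, beside 5.78%. With age as a further term the Igfbp2 difference was 0.62 (adjusted p = 0.864), and again 0 of 9 passed beside 0.0482% of all genes.

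The groups' values of Igfbp2 by sex were as follows. In WT saline the 3 females had 26.8, 17.6 and 27.85 CPM of Igfbp2 and the 3 males 14.1, 9.49 and 10.9. The 1 female of KO saline had 14.0 CPM, within the range of its 4 males at 17.5, 7.33, 21.4 and 12.0. The KO AAV females had 23.97 and 22.2 CPM and the males 16.9, 17.3 and 13.2. Among males alone the log2 change of KO saline against WT saline turned from -0.32 to 0.33 for Igfbp2 and from -0.20 to 0.35 for Igfbp6. With sex as a term over all animals the changes were -0.07 (SE 0.261) and -0.10 (SE 0.266). None of these values passed the test. For Igfbp5 the log2 difference of females from males was -0.10 (SE 0.0911, adjusted p = 0.98).

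**Figure D5:**
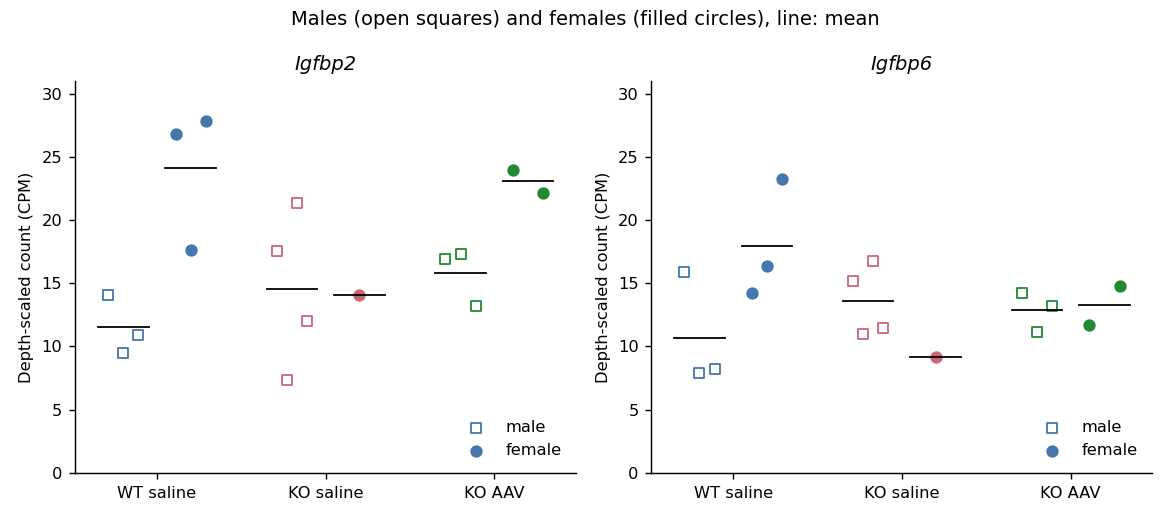
Level of Igfbp2 (left) and Igfbp6 (right) in each mouse, as TMM-scaled CPM from 0, with males as open squares, females as filled circles and lines at the mean of each sex. In WT saline the 3 females had 17.6 to 27.85 CPM of Igfbp2 and the 3 males 9.49 to 14.1, while KO saline has 1 female, at 14.0. The share of all tested genes with such a split was not computed.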

How the data were processed

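Per the labels' protocols, animals were perfused, RNA was taken from frozen powder, and a QuantSeq 3′ forward kit with molecular identifiers against PCR duplicates gave the libraries. The submitters' processing notes name build GRCm38.p6, the aligner STAR, edgeR 3.40.2 in R 4.2, and FastQC 0.11.5 with MultiQC 1.0. The counting program and its strand setting were not given in the sources used here. Raw counts per gene were deposited by the authors, each with at most 2 significant digits, so that 48 of the 160 member values are rounded, by at most 5%. A signal table of CPM, and library sizes with a normalization factor (a ratio), both deposited by the authors, served only in alternatives.

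Members were matched by symbol. Genes were filtered with filterByExpr, scaled with TMM and tested in 1 quasi-likelihood fit, all 16 libraries together and group the only factor (R 4.3.3, edgeR 4.0.16), and p was adjusted by Benjamini-Hochberg over the 10363 genes of each comparison, with a threshold of 0.05. The common biological coefficient of variation was 0.181. Correlations used log2 CPM with a prior count of 2. Sex, and 8 months of treatment, come from the deposited annotation. Replicates are separate animals. Intervals and floors cover counting error only where they rest on a count of 0.

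The members, gene lists and tests were chosen with earlier results of these data known. Named genes are the members, Grn, the 2 genes most correlated with each tested member, the 2 of lowest p per pathway list (knockout against wild type under saline, and virus against saline in the knockout), and a few others the values turn on, chosen after they were seen (Insr, Sort1, Igfals, Pappa, Pappa2, Igfbp1, marker and overlapping genes). Of the genes most correlated with a member, 1 is not reported here. Alternatives covered scaling, filters, DESeq2 1.42.0, limma 3.58.1 (limma-voom, and limma on the deposited signal with pseudocounts of 0.25 and 1), sex, age, RNA integrity number, a replicate block and leaving out libraries.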

Additional observations from a re-analysis of the deposited data

Results flagged for a closer look

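In 2 of the 27 groups of values examined (9 tested members in 3 groups) 1 animal lay far from the others, where chance flags about 1 in 20. Igf1 in WT saline replicate 6, at 14.15 CPM, stood well above the next highest animal of its group at 7.66. Igfbp5 in WT saline replicate 2, at 189.8 CPM, stood above the next highest at 158.6, and was still below every KO saline animal.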

How the results depend on the processing

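Over 34 alternatives no member passed the adjusted threshold in any comparison, and 18 of the 27 member changes kept their direction in all of them. Igfbp5 in KO saline against WT saline ranged from a log2 of 0.323 to 0.462 and in KO AAV against KO saline from -0.371 to -0.252, and Igfbp4 from 0.235 to 0.395 and from -0.545 to -0.355. The number of all genes passing, for knockout against wild type under saline, then KO AAV against KO saline, then KO AAV against WT saline, was 5, 2 and 1. Without a count filter it was 16, 4 and 2, while with a mean CPM of at least 5 the middle count was 1. With limma on the deposited CPM plus 0.25 the middle count was 0, without both libraries of RNA integrity number 8 it was 1, and in males alone the earlier counts were 2 and 0. Leaving out 1 library gave 4 to 5, 1 to 2 and 1. The middle count fell to 1 without KO AAV replicates 1, 3 or 4 or KO saline replicate 4. Depth limits the low members most: Igfbp3 had 2 to 20 counts per library and was not tested at a mean CPM of at least 5.

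Same-numbered animals correlated from -0.431 to 0.444 (median -0.0452), beside a median of 0.00232 for animals of different number. Such correlations cannot decide whether a number marks a shared cohort or day, because 1 component held 35.5% of the residual variance. Replicates 1 and 2 were 12.2 months old in every group. The replicate block gave 3, 1 and 1 genes, no member passing, and turned Igfbp6 to 0.026 in KO saline against WT saline and to 0.073 in KO AAV against WT saline.

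The log2 changes that turned sign, none past the threshold, were as follows; the cause was not tested. In KO saline against WT saline, Igfbp7 was 0.011 with limma-voom and -0.119 to 0.046 leaving out 1 library, Igfbp2 was 0.33 and Igfbp6 0.35 in males alone, and Igfbp6 was -0.332 to 0.0089 leaving out 1 library. In KO AAV against KO saline, Igf1r was 0.0040 with library size alone and -0.104 to 0.017 leaving out 1 library, and Igf2r was -0.046 to 0.215. Igfbp3 was 0.069 and 0.040 with limma on the deposited CPM plus 0.25 and 1, 0.25 in males alone and -0.374 to 0.353 leaving out 1 library. Igfbp6 was -0.00059 with sex as a term, -0.13 with the RNA integrity number as a term, -0.063 in males alone and -0.030 to 0.173 leaving out 1 library. In KO AAV against WT saline, Igfbp2 was -0.12 with the RNA integrity number as a term, -0.053 without both libraries of RNA integrity number 8 and -0.070 to 0.251 leaving out 1 library. Igfbp6 was 0.10 with age as a term, 0.28 in males alone and -0.266 to 0.076 leaving out 1 library.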
